A study of Homo sapiens with 3 samples.

Results

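The genes that encode inhibitors of the cyclin-dependent kinases (CDKs) were examined in MCF10A cells. There were 7 of them among the 62754 genes of the expression table, and they form 2 families. The CIP/KIP family consists of CDKN1A, CDKN1B and CDKN1C. The INK4 family consists of CDKN2A, CDKN2B, CDKN2C and CDKN2D. The 7 genes were selected by symbol through their Ensembl identifiers, and the group was chosen with the knowledge that CDKN2A and CDKN2B had 0 reads in these samples. Their levels and their order are therefore given as a description, and no test was applied to them.

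MCF10A cells are human breast epithelial cells that were immortalized without becoming tumorigenic. RNA was sequenced from 3 replicates of 1 group, which the study used to build a model of the metabolism of this line. The cells carried an empty retroviral Retro-X Tet-One vector with no gene of interest, had been selected with puromycin, and received neither doxycycline nor any other treatment. All 3 replicates were of 1 batch, and there was no cell line without the vector and no second condition. The labels do not say whether the replicates came from separate cultures, so the spread between them may be technical. The deposited values were TPM, a measure of transcript abundance that divides read numbers by gene length and brings every replicate to the same total, so that levels of different genes can be set side by side. The replicates held 15273329, 15446347 and 11166546 reads, as recovered from the TPM values.

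CDKs drive the cell cycle when bound to a cyclin. INK4 proteins bind CDK4 and CDK6 and keep them from their partners, the D cyclins, whereas CIP/KIP proteins bind whole complexes of a cyclin and a CDK and inhibit CDK2 in particular. Active CDK4 and CDK6 phosphorylate the retinoblastoma protein RB1 and thereby release E2F transcription factors. CDKN2A encodes p16INK4a and, from a start site further upstream and in another reading frame, ARF, which restrains the ubiquitin ligase MDM2. CDKN2A and CDKN2B, which encodes p15INK4b, lie side by side on chromosome 9p21. MCF10A is known as a line that lacks this region, but DNA was not measured here and the state of the locus was not tested.

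The levels of the inhibitors spanned a wide range. CDKN1A was by far the highest, CDKN2C and CDKN1B followed at a similar level, CDKN1C and CDKN2D were low, and CDKN2A and CDKN2B had no reads. The samples are bulk RNA, so a low level in every cell and a higher level in fewer cells cannot be told apart. A mean of at least 1 TPM, the cutoff at which the study calls a gene expressed, was reached by 5 of the 7 inhibitors, beside 56.7% of all protein-coding genes. The other 2 had 0 reads in every replicate, as did 26.2% of all protein-coding genes. Both counts are part of how the group was chosen.

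CDKN1A encodes p21, which arrests cells after DNA damage and is also present in cycling cells. It lies on chromosome 6 (ENSG00000124762, hg38, chr6:36676460-36687337, plus strand). The level of CDKN1A was 157, 163 and 135 TPM in the 3 replicates (1877, 1998 and 1367 reads), with a mean of 151.6 TPM ± 14.96 (SD, n = 3). This level was above that of 95.3% of protein-coding genes. CDKN1A alone made up 73.2% of the summed TPM of the 7 inhibitors. A gene on the opposite strand covers 4.87% of its exonic bases, and whether reads were counted by strand is not stated.

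CDKN2C encodes p18INK4c and lies on chromosome 1 (ENSG00000123080, chr1:50960745-50974634, plus strand). CDKN2C was at 28.7, 25.7 and 21.2 TPM in the 3 replicates, with a mean of 25.2 TPM ± 3.77 (SD, n = 3) and 439, 403 and 276 reads. It was the main INK4 transcript of these cells and made up 12.1% of the summed TPM of the inhibitors. A gene on the opposite strand covers 20.4% of its exonic bases.

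CDKN1B encodes p27, which holds cells in quiescence and is removed at the protein level through SKP2 and CKS1B as cells enter S phase. It lies on chromosome 12 (ENSG00000111276, chr12:12685498-12722369, plus strand). CDKN1B was at 26.8, 22.3 and 20.7 TPM, with a mean of 23.3 TPM ± 3.14 (SD, n = 3) and 611, 524 and 402 reads. Among protein-coding genes that reached 1 TPM, CDKN2C and CDKN1B were in the middle, above 50.4% and 47.8% of them.

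CDKN1C encodes p57, an imprinted inhibitor on chromosome 11 (ENSG00000129757, chr11:2883213-2885775, minus strand). CDKN1C was at 4.61, 4.01 and 3.46 TPM, with a mean of 4.03 TPM ± 0.576 (SD, n = 3). These values rest on 47, 42 and 30 reads, with exact 95% Poisson intervals of 34.5 to 62.5, 30.3 to 56.8 and 20.2 to 42.8 reads. All such intervals cover counting error only.

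CDKN2D encodes p19INK4d and lies on chromosome 19 (ENSG00000129355, chr19:10566460-10569059, minus strand). CDKN2D was at 3.60, 3.24 and 2.35 TPM, with a mean of 3.06 TPM ± 0.644 (SD, n = 3) and 27, 25 and 15 reads. CDKN1C and CDKN2D were detected in every replicate, but near the lower end of the expressed genes, above 12.6% and 9.55% of the protein-coding genes that reached 1 TPM.

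CDKN2A (ENSG00000147889, chr9:21967752-21995301, minus strand) and CDKN2B (ENSG00000147883, chr9:22002903-22009305, minus strand) had 0 reads in all 3 replicates. The exact Poisson interval of a count of 0 reaches up to 3.69 reads in a library, and the limit used here was lower, at 3 reads. For CDKN2A that limit was 0.543, 0.528 and 0.638 TPM, and for CDKN2B, whose transcript is longer, it was 0.148, 0.144 and 0.174 TPM. On their own strand, 0% of the exonic bases of either gene are shared with a neighbour. On the opposite strand CDKN2B-AS1 covers 15.3% of the exonic bases of CDKN2A, which leaves 3292 of 3885 bases with no overlap, and none of the 4000 exonic bases of CDKN2B is covered. The mean level of CDKN1A was 266-fold the mean limit of 3 reads for CDKN2A and 977-fold that for CDKN2B. Within replicates these ratios were lowest in replicate 3, at 211-fold and 775-fold. The mean level of CDKN2C, the main INK4 transcript, was 44.3-fold the mean limit for CDKN2A and 162-fold that for CDKN2B. In replicate 3, again the lowest, the ratios of CDKN2C were 33.3-fold and 122-fold. All of these ratios would be smaller against a limit of 3.69 reads.

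**Figure D1:**
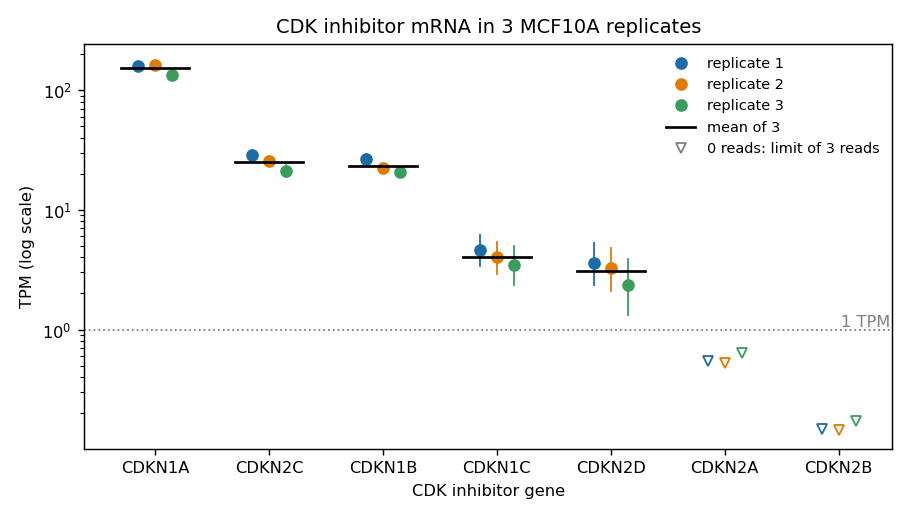
Level of each CDK inhibitor gene in TPM on a log axis, with 1 point per replicate, the 95% Poisson interval of its reads as a line (hidden by the point where it is short) and the mean of 3 replicates as a black bar. Open triangles mark the limit of 3 reads for genes with 0 reads. CDKN1A sat between 135 and 163 TPM, and CDKN2A and CDKN2B had no reads.

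The order CDKN1A, CDKN2C, CDKN1B, CDKN1C, CDKN2D was the same in 3 of 3 replicates, but not every step in it was larger than the spread. CDKN1A exceeded CDKN2C 5.48-, 6.35- and 6.34-fold within the replicates, a mean of 6.06 ± 0.503 (SD, n = 3), and their ranges did not overlap. CDKN2C and CDKN1B differed by 1.94 TPM in their means, less than the SD of 3.77 TPM of CDKN2C, and their ranges overlapped. Within the replicates CDKN2C was higher by 1.97, 3.33 and 0.534 TPM, or 1.08-fold ± 0.0622 (SD, n = 3). The step from CDKN1B to CDKN1C was 5.78-fold ± 0.207 (SD, n = 3), again with no overlap. Within the replicates CDKN1C exceeded CDKN2D 1.33-fold ± 0.125 (SD, n = 3). Their means differed by 0.964 TPM, which was above the larger SD of 0.644 TPM, but their ranges overlapped as deposited. Whether they overlapped depended on the scaling. With mitochondrially encoded genes left out they still did, with CDKN1C between 3.69 and 4.92 TPM and CDKN2D between 2.51 and 3.84 TPM. With median-of-ratios size factors they did not, with CDKN1C between 3.78 and 4.36 TPM and CDKN2D between 2.62 and 3.40 TPM. Nor did they with TPM rescaled over protein-coding genes, with CDKN1C between 4.35 and 5.04 TPM and CDKN2D between 2.95 and 3.93 TPM. Their few reads still leave wide counting intervals.

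The steps between neighbours depended on the length by which reads were divided. The deposited TPM values were reproduced by the longest annotated transcript of each gene, which for CDKN2C has 2904 bases and for CDKN1B 4335 bases. The canonical transcripts, the ones the annotation marks as representative, have 995 and 2411 bases. When the same reads were divided by the canonical lengths, CDKN2C was at 68.0, 60.7 and 51.4 TPM, with a mean of 60.1 TPM ± 8.34 (SD, n = 3). CDKN1B was then at 39.1, 32.6 and 30.9 TPM, with a mean of 34.2 TPM ± 4.32 (SD, n = 3). The ranges of these genes no longer overlapped and they differed 1.76-fold ± 0.101 (SD, n = 3), while the lead of CDKN1A over CDKN2C shrank to 2.22-fold ± 0.184 (SD, n = 3). CDKN1C and CDKN2D no longer overlapped either, with the lowest replicate of CDKN1C at 3.14 TPM, the highest of CDKN2D at 2.92 TPM and a 1.45-fold difference ± 0.137 (SD, n = 3). The order of the 5 detected inhibitors was unchanged. Which transcripts of CDKN2C the cells made cannot be read from values per gene.

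**Figure D2:**
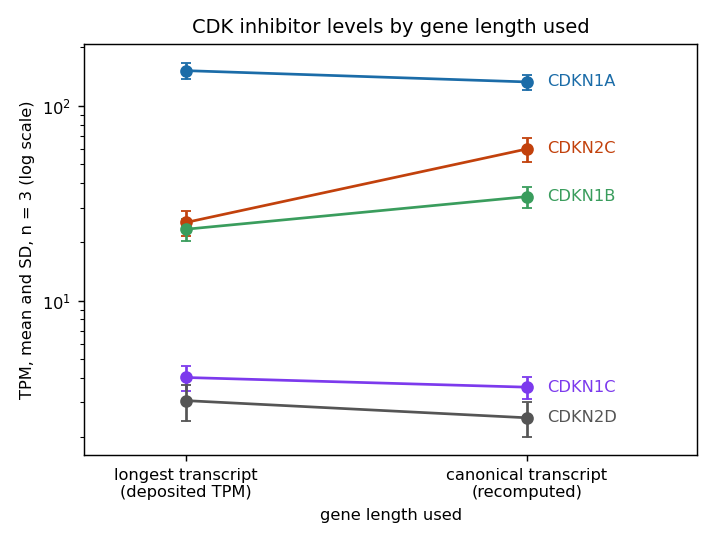
Mean level of the 5 detected CDK inhibitors in TPM on a log axis, with SD over 3 replicates, with reads divided by the longest transcript (deposited values) or by the canonical transcript. CDKN2C was at 25.2 TPM with the first length and at 60.1 TPM with the second, where it lay apart from CDKN1B, and the order of the genes was the same.

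Summed by family, the CIP/KIP inhibitors were at 179 TPM ± 17.4 and the INK4 inhibitors at 28.3 TPM ± 4.41 (SD, n = 3 each). CIP/KIP genes thus made up 86.4% of the inhibitor TPM, with 85.4%, 86.8% and 87.1% in the 3 replicates. With canonical lengths the share of the INK4 genes was 26.8% ± 1.33 in place of 13.6% ± 0.903 (SD, n = 3 each). Within the INK4 family CDKN2C exceeded CDKN2D 8.31-fold ± 0.627 (SD, n = 3), so nearly all of the INK4 transcripts that remained came from 1 gene.

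Replicate 3 was the lowest of the 3 for 5 of the 5 detected inhibitors. The same held for 69.5% of all genes whose mean reached 1 TPM, so this is a property that the inhibitors share with most expressed genes. Over the 8807 genes that reached 10 TPM, the log2 ratio of replicate 3 to replicate 1 had a median of -0.25, and it was -0.22 for CDKN1A, -0.44 for CDKN2C, -0.37 for CDKN1B, -0.41 for CDKN1C and -0.61 for CDKN2D. After scaling by median-of-ratios size factors, CDKN1A was at 148, 154 and 150 TPM and CDKN2C at 27.1, 24.2 and 23.7 TPM. On the log2(TPM + 1) scale, the SD between replicates was 0.15 for CDKN1A, 0.21 for CDKN2C and 0.18 for CDKN1B, beside a median of 0.19 over all genes that reached 1 TPM. For CDKN1C and CDKN2D it was 0.17 and 0.24, about as large as the counting error of 0.19 and 0.23 that their few reads carry.

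The start sites of the inhibitors on both sides of this divide are shown by their promoters, from 250 bases before to 50 bases after the start, as given by RefSeq for GRCh38.p14. Of the 7 inhibitors 6 had an entry, with 9 promoters in all. The 5 printed are those of CDKN1A (chr6:36678464-36678763, plus strand), of a CpG-rich start of CDKN2C (chr1:50968456-50968755, plus strand) and its canonical start (chr1:50969995-50970294, plus strand), of the p16INK4a start of CDKN2A (chr9:21974808-21975107, minus strand), and of CDKN2B (chr9:22009256-22009555, minus strand). They were chosen to set the most abundant inhibitor of each family beside the genes without reads. Capitals mark the GC box GGGCGG, a motif bound by SP1, and the E-box CACGTG, a motif bound by MYC, on either strand. Neighbouring matches may overlap.
CDKN1A: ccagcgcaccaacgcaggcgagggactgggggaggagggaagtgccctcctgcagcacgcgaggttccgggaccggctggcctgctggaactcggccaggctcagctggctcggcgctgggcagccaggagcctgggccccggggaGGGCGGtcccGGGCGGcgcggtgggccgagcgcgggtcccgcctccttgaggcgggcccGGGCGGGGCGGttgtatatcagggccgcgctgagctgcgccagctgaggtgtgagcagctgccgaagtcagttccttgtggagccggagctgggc
CDKN2C, CpG-rich start: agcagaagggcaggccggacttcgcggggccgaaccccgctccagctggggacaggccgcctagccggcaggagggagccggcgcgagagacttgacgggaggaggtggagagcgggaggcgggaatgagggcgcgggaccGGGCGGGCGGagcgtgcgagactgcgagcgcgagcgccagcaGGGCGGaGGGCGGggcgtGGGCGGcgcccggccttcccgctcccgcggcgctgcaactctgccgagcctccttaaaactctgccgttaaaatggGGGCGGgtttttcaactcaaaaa
CDKN2C, canonical start: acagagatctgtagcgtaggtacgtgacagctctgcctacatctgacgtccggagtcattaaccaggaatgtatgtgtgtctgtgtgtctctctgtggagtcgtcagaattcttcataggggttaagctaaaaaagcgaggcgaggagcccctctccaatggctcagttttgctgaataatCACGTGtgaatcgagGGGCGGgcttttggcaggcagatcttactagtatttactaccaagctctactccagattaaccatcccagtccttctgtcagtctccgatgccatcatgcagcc
CDKN2A, p16INK4a start: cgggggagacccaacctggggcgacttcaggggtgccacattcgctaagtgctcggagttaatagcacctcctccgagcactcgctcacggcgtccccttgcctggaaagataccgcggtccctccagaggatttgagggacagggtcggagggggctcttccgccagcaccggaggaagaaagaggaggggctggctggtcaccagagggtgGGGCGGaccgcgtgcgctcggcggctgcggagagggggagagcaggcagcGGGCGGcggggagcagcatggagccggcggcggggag
CDKN2B: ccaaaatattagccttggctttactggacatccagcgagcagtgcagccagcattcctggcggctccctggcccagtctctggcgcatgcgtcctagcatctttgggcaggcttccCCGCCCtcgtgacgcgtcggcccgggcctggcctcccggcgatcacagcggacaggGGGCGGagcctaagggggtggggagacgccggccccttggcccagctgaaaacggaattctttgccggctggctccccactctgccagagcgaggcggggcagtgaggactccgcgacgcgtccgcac

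The CDKN1A promoter held 4 GC boxes and 29 CpG dinucleotides. The upstream of the 2 printed CDKN2C promoters held 6 GC boxes and 37 CpG, whereas the promoter of its canonical start held 1 GC box, 1 E-box and 11 CpG. The p16INK4a promoter of CDKN2A and the promoter of CDKN2B, genes without reads, held 2 GC boxes each, with 26 and 25 CpG. The further upstream CDKN2A promoter, not printed, held 0 GC boxes and 28 CpG. A further CDKN2C promoter, at the start of its longest transcript and not printed, held 0 GC boxes, 1 E-box and 8 CpG. Also not printed are the promoters of CDKN1B, with 1 GC box and 29 CpG, and of CDKN2D, with 3 GC boxes and 36 CpG. The detected CDKN1B thus held fewer GC boxes than CDKN2B or the p16INK4a start, so their number did not separate detected genes from genes without reads. Over 35116 RefSeq promoters of the same length, 45.0% held at least 1 GC box, 9.06% held 4 or more, 7.26% held an E-box, and the median number of CpG was 14. None of the 9 promoters of the inhibitors held the TATA box TATAAA, which 11.5% of all promoters did, or the E2F motif in the forms TTTGGCGC or TTTCCCGC, which 2.27% did. These matches describe letters within the windows and were not related to any measurement of binding.

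The neighbours of CDKN2A were examined to see how far the lack of reads extended on chromosome 9. Within 3 Mb of CDKN2A there were 109 annotated genes, of which 80 had 0 reads, or 73.4%, beside 58.1% of all annotated genes. Of the 34 protein-coding genes in this window 22 had 0 reads, beside 26.2% of all protein-coding genes. The window holds the type I interferon cluster, whose genes are normally silent without viral infection, and 15 of its 16 protein-coding genes had 0 reads. IFNE, the interferon that epithelia make constitutively, was the other, with 5, 10 and 7 reads. Of the remaining 18 protein-coding genes 7 had 0 reads, namely MTAP, CDKN2A, CDKN2B, PLIN2, SLC24A2, HACD4 and IZUMO3. The window was placed on CDKN2A, and CDKN2A and CDKN2B were chosen with their 0 reads known. Both genes therefore add to all counts of this window by choice, and no excess of genes without reads was tested.

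The genes next to CDKN2A formed an unbroken run of 15 with at most 1 read each, from MTAP to 1 of the long noncoding genes beyond CDKN2B (chr9:21802636-22214672, 412 kb). This run comprised 3 protein-coding genes, 6 long noncoding genes and 6 others, and 1 read in all fell in it, in CDKN2B-AS1 in replicate 3. Of its 15 genes 14 had 0 reads, beside 58.1% of all annotated genes. Runs without reads were not particular to this place, since every gene from HACD4 to IFNA20P in the same window also had 0 reads. MTAP encodes methylthioadenosine phosphorylase, a housekeeping enzyme of the methionine salvage pathway. Its exons cover 14527 bases, of which 7.87% are also exonic in other genes of that strand. The mean limit of 3 reads was 0.0791 TPM for MTAP.

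Reads returned on either side of the run. Toward the telomere, MIR31HG was at 2.85, 3.03 and 3.38 TPM from 98, 107 and 99 reads, with its start 435 kb from that of CDKN2A. KLHL9, an adaptor of a ubiquitin ligase, was at 14.7, 11.4 and 12.4 TPM, with its start 659.9 kb away. Toward the centromere, DMRTA1 had 21, 17 and 15 reads and a mean of 0.625 TPM ± 0.079 (SD, n = 3), with its start 452 kb away. ELAVL2, which encodes an RNA-binding protein, was at 7.01, 6.27 and 5.55 TPM, 1831 kb away. FOCAD, further out on the telomeric side, had a mean of 20.4 TPM ± 2.02 (SD, n = 3), and RPS6, a ribosomal protein gene, reached 2740 TPM. The stretch between the last gene with reads before the run, RN7SL151P with 1, 1 and 5 reads, and DMRTA1 measured 747 kb. This stretch describes reads per gene only, and the state of the DNA within it was not tested. Its telomeric side is uncertain, since the mean of RN7SL151P, 1.76 TPM, lay below its own limit of 3 reads, 2.12 TPM. Between it and MIR31HG, which ends at chr9:21559891, the pseudogenes H3P30 and KHSRPP1 had 0 reads.

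**Figure D3:**
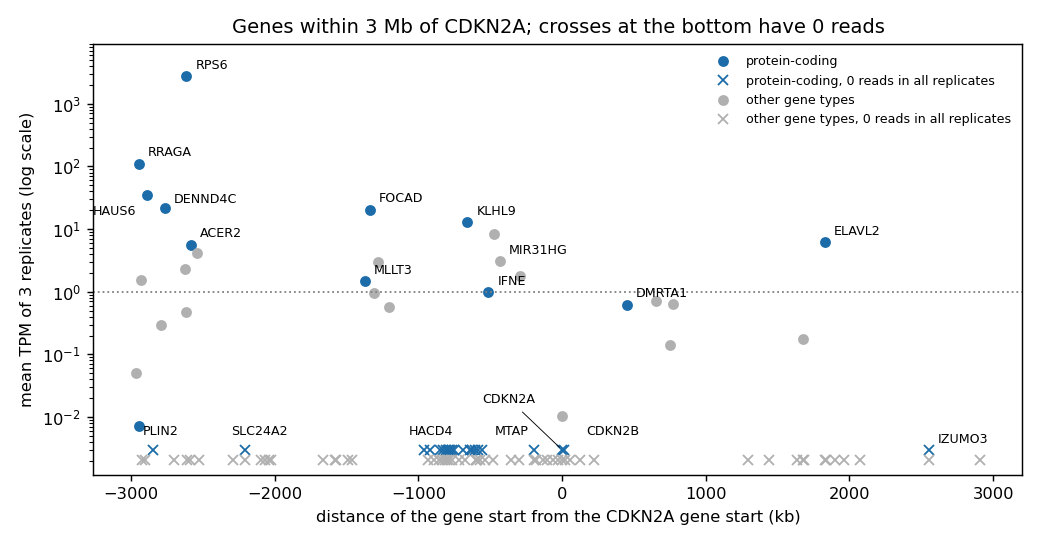
Mean TPM of 3 replicates on a log axis for the 109 genes within 3 Mb of CDKN2A, by distance of their start from that of CDKN2A in kb. Blue marks protein-coding genes, grey other types, and crosses along the bottom the 80 genes with 0 reads. The dotted line is at 1 TPM. MTAP, CDKN2A and CDKN2B, at 0 reads, lie in the run of 15 genes that holds 1 read in all, with MIR31HG and KLHL9 on its left and DMRTA1 on its right.

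The kinases and cyclins that the inhibitors bind were all expressed, 11 of 11 at or above 1 TPM, from 21.5 TPM for CCND2 to 284 TPM for CDK4. CDK4, the kinase that INK4 proteins bind, was at 302, 302 and 247 TPM, and CDK6, the other one, at 67.4, 76.9 and 54.6 TPM. The sum of both kinases exceeded the sum of the INK4 inhibitors 11.4-, 13.1- and 12.8-fold in the 3 replicates, or 4.58-fold ± 0.330 (SD, n = 3) with canonical lengths. CDK2 was at 88.0 TPM ± 6.70 (SD, n = 3), and the sum of the CIP/KIP inhibitors exceeded it 2.03-fold ± 0.0463 (SD, n = 3). This ratio covers 1 kinase only and is not comparable with that of the INK4 genes, since CIP/KIP proteins bind complexes of cyclins and CDKs more widely. CDK4 alone, at 284 TPM, was above the CIP/KIP sum of 179 TPM. The D cyclins summed to 309 TPM ± 31.2 and the E and A cyclins to 251 TPM ± 33.2 (SD, n = 3 each). These are ratios of transcripts and not of proteins.

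Genes downstream of the kinases were expressed throughout. The list of the RB family, E2F factors and their partners had 13 of 13 genes at or above 1 TPM, from E2F5 at 6.87 TPM to TFDP1, the dimerization partner of E2F, at 346 TPM. RB1 itself was at 79.8, 71.5 and 70.0 TPM, so the transcript of this target of CDK4 and CDK6 was present, while its protein was not measured. All 10 of the proliferation genes reached 1 TPM, from MCM5, a subunit of the replicative helicase, at 81.7 TPM to CCNB1, the mitotic cyclin B1, at 449 TPM, and 7 of them had a higher mean than CDKN1A. High CDKN1A mRNA and high levels of proliferation genes were thus measured in the same bulk samples.

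The genes that remove the inhibitor proteins were also present, with 12 of 12 at or above 1 TPM, from SKP1 at 6.11 TPM to PCNA at 542 TPM. SKP2, which recognises p27 for degradation, was at 55.4 TPM ± 7.05, and its cofactor CKS1B at 179 TPM ± 21.3 (SD, n = 3 each). Both were above CDKN1B at 23.3 TPM.

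The regulators of CIP/KIP transcription comprised 16 genes, all at or above 1 TPM, from FOXO4 at 2.78 TPM to MYC, which represses CDKN1A, at 406 TPM. MDM2, which encodes a ubiquitin ligase, was at 99.7, 93.6 and 83.7 TPM. TGFBR2, a receptor of transforming growth factor beta, which induces CDKN1A and CDKN2B, was at 158 TPM ± 18.5 (SD, n = 3). The regulators of INK4 genes, most of them Polycomb proteins that silence the 9p21 locus, had 11 of 11 genes at or above 1 TPM. They ranged from CBX7 at 2.13, 1.12 and 1.20 TPM to SUZ12 at 60.0 TPM, with EZH2 at 41.8 TPM and BMI1 at 20.0 TPM. In BMI1 22.8% of the exonic bases belong to a second gene on that strand too, so its reads are less certain.

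CDKN1C lies in an imprinted domain on chromosome 11p15, and its neighbours differed widely. Of 8 genes there 6 reached 1 TPM. NAP1L4, a histone chaperone, had the highest level at 231 TPM, and PHLDA2, an imprinted growth restrictor, was at 136, 145 and 118 TPM, both far above CDKN1C at 4.03 TPM. The genes that did not reach 1 TPM were KCNQ1, with 2 reads in all, and IGF2, with 1 read in all. KCNQ1OT1, the noncoding RNA that silences the domain in cis on the paternal chromosome, was at 0.923, 1.84 and 0.774 TPM. This RNA is long, and these values rest on 446, 913 and 318 reads over 91667 bases. Its mean thus depends on the length used more than that of any inhibitor does.

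Other proteins that bind CDKs or act on them directly were at or above 1 TPM in 7 of 7 cases, from CABLES1 at 7.28 TPM to CDC25B, a phosphatase that activates CDKs, at 175 TPM.

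**Figure D4:**
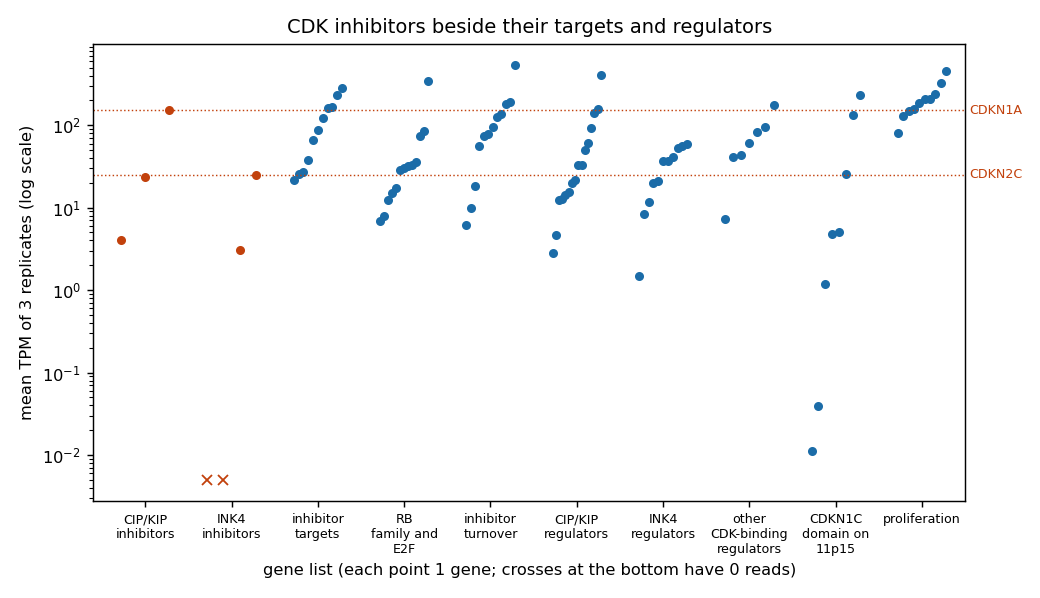
Mean TPM of 3 replicates on a log axis for each gene of the inhibitor families (orange) and of 8 lists of their targets, regulators and neighbours (blue), sorted within each list. Crosses at the bottom are CDKN2A and CDKN2B with 0 reads, and dotted lines mark CDKN1A at 151.6 TPM and CDKN2C at 25.2 TPM. All genes of the lists of targets, RB family and turnover lie above 1 TPM.

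The labelled cell type was checked against marker genes. The basal breast epithelial markers had 7 of 7 genes at or above 1 TPM, from CDH1 at 29.1 TPM to KRT5 at 6612 TPM, and summed to between 13812 and 17802 TPM per replicate. The luminal markers had 2 of 5 (GATA3 at 12.8 TPM and FOXA1 at 1.11 TPM), with ESR1, PGR and KRT19 below 1 TPM, and summed to between 11.9 and 16.3 TPM. The fibroblast markers had 2 of 5 (DCN at 9.05 TPM and COL1A1 at 4.96 TPM), with COL1A2, LUM and PDGFRA at 0 reads, and summed to between 13.4 and 14.3 TPM. Immune markers had 0 of 4, with LYZ the highest at 0.963 TPM, and endothelial markers had 1 of 3, PECAM1 at 1.77 TPM, with CDH5 at 0 reads. The sums were between 0.812 and 1.20 TPM for immune and between 1.57 and 1.997 TPM for endothelial markers.

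The genes most like each inhibitor were sought by the Euclidean distance of log2(TPM + 1) over the 3 replicates among 20045 other protein-coding genes. CDKN1A was closest to NASP at a distance of 0.0125 and to MYO1C at 0.0351. For CDKN2C these were TRIM33 (0.0210) and TTI2 (0.0369), for CDKN1B NPAT (0.0312) and SIRT1 (0.0380), for CDKN1C ZNF615 (0.0234) and WIPF1 (0.0422), and for CDKN2D NEXN (0.0545) and ZNF862 (0.0631). Over 3 replicates of 1 condition such a distance mostly measures a like level, and between 366 and 1316 genes lay within 0.5 of each inhibitor.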

How the data were processed

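RNA was sequenced from 3 replicates of MCF10A cells with an empty vector. Libraries were made from 300 ng of total RNA with depletion of ribosomal RNA. Per the methods of the study, RNA was taken 27 h after seeding, and reads were mapped to hg38 by the authors, who used Seq2science to count them. The submitters' processing notes name fastp, STAR, MultiQC, hg38 and GRCh38.p14. The annotation release, the gene length and the use of strand are not given in the sources used here. The authors deposited TPM values for 62754 genes and no read counts.

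Of these genes, 62700 matched GENCODE release 44 by identifier. TPM times the longest transcript length, less 1 base per exon, gave whole multiples of its smallest step for all values within 0.01, and that step was taken as 1 read. Intervals are exact Poisson intervals. For a gene with 0 reads the limit was 3 reads. No value was compared by a test. The scripts were tested on simulated data.

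The inhibitors and the 15 lists (119 genes) were chosen with earlier results of these data known. Named genes were the inhibitors, the protein-coding or detected genes near CDKN2A, partly as ranges, the highest and lowest gene of each list, with those below 1 TPM in lists of 10 or fewer genes, and the 2 genes closest to each detected inhibitor. Other genes of the lists were named for their role after their values were seen, and 1 gene is not reported here. Alternatives covered the cutoff, pseudocount, scaling, length, window, low reads, mitochondrial genes, the median and leaving out each replicate. Values were computed in Python 3.11.15 with pandas 2.3.3, numpy 2.4.6 and scipy 1.17.1 and drawn with matplotlib 3.10.9.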

Additional observations from a re-analysis of the deposited data

How the results depend on the processing

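Of 260 alternative values for 28 results, 238 stayed within the spread or, for counts, within 1.5 times, 22 moved further and 0 changed sign. Only the log2 ratios between neighbours could change sign, since means and counts cannot. The means of CDKN2A and CDKN2B stay at 0 under any alternative, and scaling a whole replicate hardly moves a ratio within it. Many of these values were thus fixed in advance and say little about robustness. With TPM rescaled over protein-coding genes alone, the means were 174 TPM for CDKN1A, 26.7 TPM for CDKN1B and 4.62 TPM for CDKN1C. With canonical lengths they were 132.7 TPM for CDKN1A, 60.1 TPM for CDKN2C and 34.2 TPM for CDKN1B, and the log2 ratios were 1.14 for CDKN1A over CDKN2C (2.55 as deposited), 0.79 for CDKN2C over CDKN1B (0.11) and 2.94 for CDKN1B over CDKN1C (2.27). The last ratio was 2.50 with a pseudocount of 0.1 and 2.53 with none, where CDKN1C over CDKN2D was 0.41. The number of luminal markers that reached the cutoff was 1 at 2 TPM and 1 with canonical lengths, and between 1 and 2 when each replicate was left out in turn, with 1 without replicate 3. That of immune markers was 1 at 0.5 TPM, 1 with protein-coding scaling and 1 without mitochondrial genes, and between 0 and 1 when each replicate was left out, with 1 without replicate 3. That of endothelial markers was 0 at 2 TPM. Genes with 0 reads near CDKN2A numbered 49 of 60 within 1 Mb, 103 of 140 within 5 Mb and 22 when only protein-coding ones were counted.

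No paired analysis was possible because the study holds a single group. The levels of CDKN1C and CDKN2D are limited by their 15 to 47 reads per replicate, and a level of CDKN2A or CDKN2B below the limit of 3 reads could not be seen at this depth. Antisense genes cover 4.87% of the exonic bases of CDKN1A and 20.4% of those of CDKN2C, and since the strand setting is not stated, reads from them cannot be told apart.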

Other observations

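PLIN2, which encodes a coat protein of lipid droplets, and HACD4, an enzyme of fatty acid elongation, also had 0 reads in all 3 replicates, although they lie outside the run of genes around CDKN2A. HAUS6 was at 35.0 TPM and DENND4C at 21.4 TPM on either side of PLIN2, and FOCAD at 20.4 TPM on one side of HACD4, while the interferon genes on its other side had 0 reads up to KLHL9. These genes were singled out after their values were seen. H19, the noncoding RNA beside IGF2, was at 6.11, 5.71 and 2.42 TPM, so that replicate 3 was below the other replicates by more than for any of the detected inhibitors.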
